A study of Mus musculus with 6 samples.

Results

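The 10 genes described here, *Neurod1*, *Neurod2*, *Neurod6*, *Bhlhe22*, *Prox1*, *Zbtb20*, *Emx1*, *Emx2*, *Mef2c* and *Myt1l*, encode transcription factors of the NeuroD class and of forebrain and hippocampal neurons. They were taken by symbol from a list of names, 10 of 55357 genes in the count files, and all 10 were among the 21876 genes tested. The libraries came from wild type mouse primary neuronal cultures, prepared by the study's methods from the cortex and hippocampus of C57BL/6N embryos at E18. All cultures received lentivirus at 4 days in vitro (DIV4) and were collected at DIV14. The 3 shCtrl libraries carried a scrambled short hairpin RNA (shRNA), and the 3 sh*Pla2g4e* libraries carried the sh2 hairpin against *Pla2g4e*, which encodes a cytosolic phospholipase A2. Both hairpins came from the pLVTHM vector, and the study used the lowest virus dose that gave the intended partial loss of *Pla2g4e*, so the model is a partial knockdown in mixed cultures with 1 hairpin sequence. Cortical and hippocampal neurons were not separated, and nothing in the sources used here says whether the libraries of a group were separate cultures or litters, so p-values measure only the spread between these libraries.

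Transcription factors with a basic helix-loop-helix (bHLH) domain pair with E proteins and bind E-boxes in DNA, and the NeuroD genes act in this way late in the making of glutamatergic neurons. ID proteins take up E proteins and HES proteins repress the same programme downstream of Notch. Among the other members, *Emx1* and *Emx2* are homeobox genes of the dorsal telencephalon, *Prox1* marks dentate granule neurons, *Zbtb20* specifies hippocampal fields, *Mef2c* encodes an activity-regulated MADS-box factor and *Myt1l* a zinc finger repressor of non-neuronal genes.

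Between 17054717 and 23570180 reads were counted per library, and mitochondrial genes took 2.75% to 3.79% of them. *Pla2g4e*, the target of the hairpin, was at 37.98, 35.08 and 35.39 CPM (counts scaled to library size with edgeR's TMM factors) in shCtrl replicates 1, 2 and 3 and at 21.83, 14.15 and 18.74 CPM in the same order in sh*Pla2g4e*. The groups did not overlap, and 50.5% of the shCtrl level was left (log2 fold change −0.99, SE 0.13, edgeR quasi-likelihood test, adjusted p = 0.000124). Across all genes tested, 1419 passed the threshold of an adjusted p of 0.01, of which 61.7% were lower in sh*Pla2g4e* (43.3% when scaled by library size alone), and the median log2 fold change was 0.03. The labelled neurons were present: *Map2* averaged 1638 CPM and *Camk2a* 1051 CPM in shCtrl, beside *Gad1* at 379 CPM and *Gfap* at 665.3 CPM. In bulk RNA of such a mixture, fewer cells of a type and less RNA per cell cannot be told apart.

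A hairpin acts like a microRNA on transcripts that carry its seed site, so the guide of sh2 and the stretches of member transcripts that match its seed are shown first, with the seed (guide bases 2 to 8) or its complement in capitals. The first pair are the guide and its target in exon 11 of *Pla2g4e* (GRCm38, chr2:120182753-120182771, minus strand), and the next pair are the sites in the 3′ untranslated regions (UTRs) of *Zbtb20* (chr16:43641234-43641262, plus strand, exon 15 of 15) and *Emx2* (chr19:59465129-59465157, plus strand, exon 3 of 3). The last 3 lie in coding sequence, in exon 14 of *Zbtb20* (chr16:43609415-43609443), exon 1 of *Emx1* (chr6:85187977-85188005) and exon 1 of *Emx2* (chr19:59459250-59459278), all on the plus strand.
sh2 guide: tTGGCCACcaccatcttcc
sh2 target in Pla2g4e: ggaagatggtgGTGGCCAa
Zbtb20 3′ UTR: agcaccttaacGTGGCCAtccatttgaca
Emx2 3′ UTR: gtgatggtggcGTGGCCAaggacatggga
Zbtb20 coding: gcagcgcaaccGTGGCCActtctgtgacg
Emx1 coding: tagagtccttgGTGGCCAaggatggtggc
Emx2 coding: tcgagtcgctgGTGGCCAaggacagtccc

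Only *Zbtb20* and *Emx2* of the 10 members held the seed site in the 3′ UTR of their longest coding transcript (20.0%), against 1893 of 15742 tested genes with an annotated 3′ UTR (12.025%). These UTRs are 23858 bases long in *Zbtb20* and 1310 in *Emx2*, and the shares take no account of UTR length. Neither gene passed the test for a change in level. *Emx1* held a site in its coding sequence and another in its 5′ UTR. *Neurod1*, *Neurod2*, *Neurod6*, *Bhlhe22*, *Prox1*, *Mef2c* and *Myt1l* held none in the coding sequence or 3′ UTR of that transcript, and the longest run of bases that any member shared with the 19-base target was 11, in *Myt1l*. Of the genes named from lists below, *Hes6*, *Mpped1* and *Cdk1*, all lower, held 1 site in that transcript's 3′ UTR. *Fibcd1*, also lower, held 3, and *Wfs1*, which was higher, held 1. *Pdzd2*, *Stxbp6*, *Amigo2*, *Cpne4*, *Pcdh10* and *Slc17a7*, all lower, held none there. Of these, *Pdzd2* held 5 in coding sequence, *Pcdh10* and *Slc17a7* 2 each and *Amigo2* 1. Another annotated 3′ UTR of *Pcdh10* and of *Slc17a7* held a site. What these sites do was not tested.

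The comparison of sh*Pla2g4e* with shCtrl asked whether these factors change in level when *Pla2g4e* is knocked down. One member, *Neurod6*, passed the threshold: it fell in sh*Pla2g4e*. No member passed it in the other direction. Of all genes tested, 4.0% were called lower and 2.48% higher. By sign alone, 7 of the 10 members were lower and 3 were higher, and their log2 fold changes had a median of −0.26 beside 0.03 for all genes. The members and the gene lists below were chosen with earlier results of these data known, so setting them beside all genes is descriptive only. At an unadjusted p under 0.05, edgeR gave 5 members lower and 1 higher, where 12.9% of all genes were lower and 12.8% higher. DESeq2 and limma after voom each called 1 member lower and 0 higher at the adjusted threshold, where DESeq2 called 7.42% of the genes it gave an adjusted p lower and 4.2% higher, and limma 4.23% and 2.3% of all genes. With a replicate block, a term for the replicate number, 3 members were called lower, *Neurod6*, *Mef2c* and *Myt1l*, and 1 higher, *Neurod2* (all genes with the block: 9.02% lower and 6.5% higher).

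**Figure D1:**
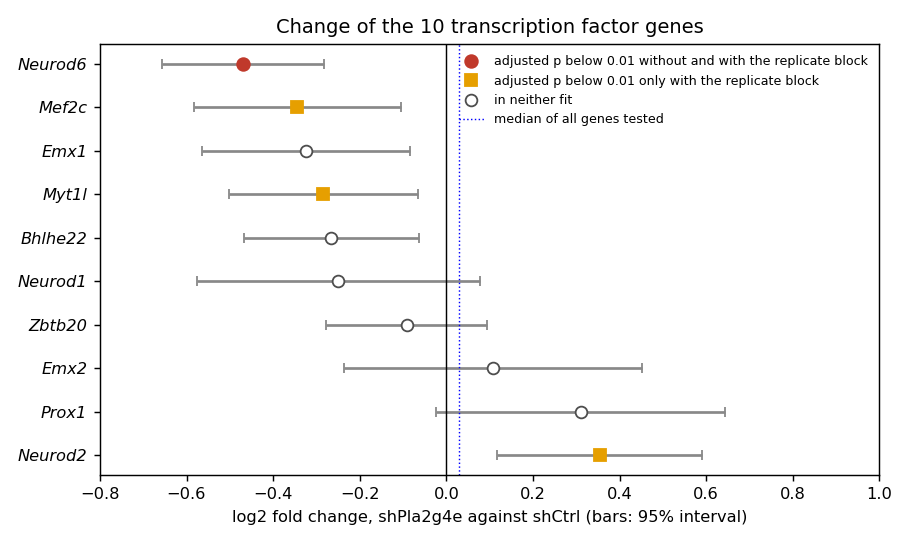
Log2 fold change of each member, sh*Pla2g4e* against shCtrl (points), with its 95% interval from the edgeR fit without a block (bars), sorted from lowest to highest. *Neurod6* at −0.47 is the only member past an adjusted p of 0.01 both without and with the replicate block, *Mef2c*, *Myt1l* and *Neurod2* (squares) pass with the block and not without it, and the dotted line is the median of all genes tested.

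Among the NeuroD genes, *Neurod6* (also called Math2 or NEX), a marker of postmitotic pyramidal neurons, was the member that fell. It was at 163.2, 184.1 and 156.5 CPM in shCtrl replicates 1 to 3 and at 129.0, 110.2 and 124.3 CPM in those of sh*Pla2g4e*. Every sh*Pla2g4e* library was below every shCtrl library, and replicate 2 held both the highest and the lowest value. The level fell from 167.9 ± 14.4 CPM to 121.2 ± 9.79 CPM (SD, n = 3 each), which left 72.2% (log2 fold change −0.47, SE 0.09, 95% interval −0.66 to −0.28, edgeR adjusted p = 0.00204). The call rested on replicate 2 of either group: without shCtrl replicate 2 the log2 fold change was −0.40 (adjusted p = 0.0257), and without sh*Pla2g4e* replicate 2 it was −0.41 (adjusted p = 0.012). *Neurod6* spans 55654807 to 55658248 of chromosome 6 (GRCm39, minus strand), its exons overlap no other gene, and no 50-base stretch of it was found in another gene's transcripts.

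*Neurod2*, which acts in cortical and hippocampal projection neurons beside *Neurod6*, lay on the other side of 0. It was at 73.49, 63.51 and 53.28 CPM in shCtrl replicates 1 to 3 and at 79.39, 90.81 and 72.79 CPM in those of sh*Pla2g4e*. The groups overlapped by one library, since sh*Pla2g4e* replicate 3 was below shCtrl replicate 1, but all 3 replicate numbers were higher in sh*Pla2g4e* than in shCtrl. The means were 63.4 ± 10.1 and 81.0 ± 9.12 CPM (log2 fold change 0.35, SE 0.11, 95% interval 0.12 to 0.59, edgeR adjusted p = 0.0473). It passed with the replicate block (adjusted p = 0.000164) and with no filter on low counts (0.00204).

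The *Neurod2* to *Neurod6* ratio within a library, chosen after both values were seen, was 0.45, 0.345 and 0.341 in shCtrl and 0.615, 0.824 and 0.585 in sh*Pla2g4e*. Every sh*Pla2g4e* library was above every shCtrl library. A ratio within a library does not depend on how the libraries are scaled. It averaged 0.379 ± 0.0622 in shCtrl and 0.675 ± 0.13 in sh*Pla2g4e* (SD, n = 3 each), and no test was made of it.

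*Neurod1*, which drives the differentiation of granule neurons in the dentate gyrus, was low. It was at 10.48, 9.864 and 8.48 CPM in shCtrl and at 7.236, 8.184 and 8.856 CPM in sh*Pla2g4e*, on 155 to 216 reads per library. The groups overlapped, and replicate 3 moved against the other two (log2 fold change −0.25, SE 0.15, 95% interval −0.58 to 0.08, edgeR adjusted p = 0.341). The exons of *Neurod1* share 7.37% of their bases with *Cerkl* on the same strand, and *Cerkl* was at 0.956 CPM in shCtrl and 0.588 CPM in sh*Pla2g4e* on average.

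*Bhlhe22*, a bHLH repressor (also Bhlhb5) that sets the area identity of upper and deep layer neurons, was at 47.83, 47.26 and 41.42 CPM in shCtrl and at 41.41, 35.74 and 36.22 CPM in sh*Pla2g4e*. The groups did not overlap, but shCtrl replicate 3 and sh*Pla2g4e* replicate 1 were nearly level. The mean went from 45.5 ± 3.54 to 37.8 ± 3.14 CPM and did not pass the threshold (log2 fold change −0.27, SE 0.10, 95% interval −0.47 to −0.06, edgeR adjusted p = 0.0815). The groups of 3 members, *Neurod6*, *Bhlhe22* and *Emx1*, did not overlap, all of them lower in sh*Pla2g4e*. Of all genes tested, 14.6% had groups that did not overlap with sh*Pla2g4e* lower, and 15.5% with sh*Pla2g4e* higher.

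**Figure D2:**
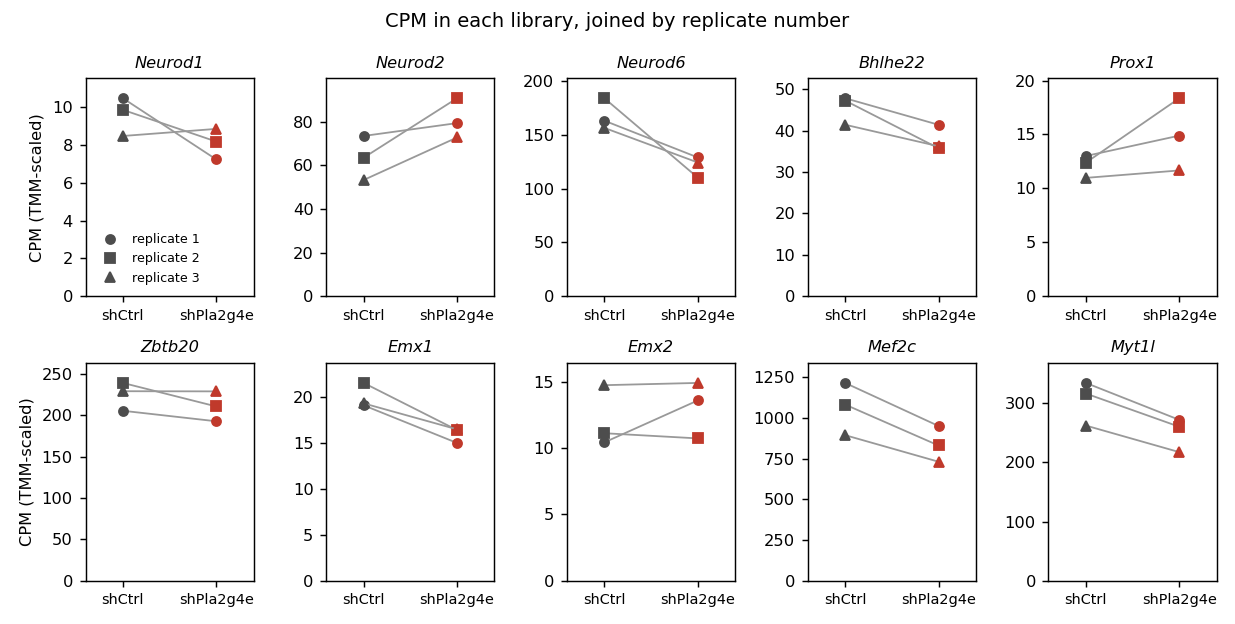
TMM-scaled CPM of each member in the 3 shCtrl (grey) and 3 sh*Pla2g4e* (red) libraries, with lines joining libraries of the same replicate number and each axis starting at 0. The *Neurod6* lines all go down with no overlap, the *Neurod2* and *Prox1* lines go up, and *Mef2c* and *Myt1l* go down in parallel from 3 different starting levels.

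*Mef2c*, an activity-regulated factor of excitatory neurons that limits synapse number, had the highest read count of the members. It was at 1216, 1083 and 895.0 CPM in shCtrl and at 951.4, 831.5 and 731.8 CPM in sh*Pla2g4e*. Replicate 1 was highest and replicate 3 lowest in both groups, so the groups overlapped while each numbered pair was lower in sh*Pla2g4e*. The means were 1065 ± 161 and 838.2 ± 110 CPM (log2 fold change −0.34, SE 0.11, 95% interval −0.58 to −0.11, edgeR adjusted p = 0.0558). With the replicate block *Mef2c* was called lower (adjusted p = 3.3e-06), and it was also called without shCtrl replicate 3 (log2 fold change −0.46, adjusted p = 0.00807) and with no filter on low counts (0.00131).

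*Myt1l*, which represses non-neuronal genes in neurons, had the same order of libraries. It was at 333.7, 315.8 and 261.8 CPM in shCtrl and at 271.4, 259.8 and 217.0 CPM in sh*Pla2g4e*. The groups overlapped and each numbered pair was lower in sh*Pla2g4e*, from 303.8 ± 37.4 to 249.4 ± 28.7 CPM on average (log2 fold change −0.28, SE 0.10, 95% interval −0.50 to −0.07, edgeR adjusted p = 0.085). The block gave an adjusted p of 0.000247. *Gm20208*, on the other strand, overlaps 4.52% of the *Myt1l* exon bases and averaged 0.939 CPM in shCtrl and 1.84 CPM in sh*Pla2g4e*.

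The EMX genes did not pass the test in either fit. *Emx1*, expressed in progenitors and neurons of the dorsal telencephalon, was at 19.06, 21.49 and 19.27 CPM in shCtrl and at 14.97, 16.37 and 16.45 CPM in sh*Pla2g4e*. All sh*Pla2g4e* libraries were below all shCtrl libraries, with means of 19.9 ± 1.34 and 15.9 ± 0.831 CPM (log2 fold change −0.32, SE 0.11, 95% interval −0.56 to −0.08, edgeR adjusted p = 0.0741, with the block 0.0221). *Emx2*, a patterning gene that is also expressed in astrocytes and progenitors, was at 10.43, 11.12 and 14.74 CPM in shCtrl and at 13.59, 10.73 and 14.91 CPM in sh*Pla2g4e*. Its groups overlapped and replicate 3 was the highest in both (log2 fold change 0.11, SE 0.16, 95% interval −0.24 to 0.45, edgeR adjusted p = 0.745), and leaving out replicate 3 of shCtrl or of sh*Pla2g4e* gave log2 fold changes of 0.28 and 0.0063. *Emx2os*, on the other strand, overlaps 8.79% of its exon bases and averaged 3.29 and 3.21 CPM in shCtrl and sh*Pla2g4e*.

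*Prox1*, a homeobox gene of dentate granule neurons and of some interneurons, was at 13.0, 12.38 and 10.97 CPM in shCtrl and at 14.89, 18.36 and 11.66 CPM in sh*Pla2g4e*. Each numbered pair was higher in sh*Pla2g4e*, but sh*Pla2g4e* replicate 3 lay inside the shCtrl range. The difference did not pass (log2 fold change 0.31, SE 0.16, 95% interval −0.02 to 0.64, edgeR adjusted p = 0.231), and without sh*Pla2g4e* replicate 2 the log2 fold change was 0.14. *Zbtb20*, which sets the identity of hippocampal pyramidal neurons and is also expressed in astrocytes, was at 205.2, 238.8 and 228.8 CPM in shCtrl and at 192.5, 210.4 and 228.6 CPM in sh*Pla2g4e*. Its groups overlapped over most of their range (log2 fold change −0.09, SE 0.09, 95% interval −0.28 to 0.09, edgeR adjusted p = 0.574), and leaving out 1 library moved the log2 fold change between −0.03 (without sh*Pla2g4e* replicate 1) and −0.16 (without sh*Pla2g4e* replicate 3).

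Levels were set side by side between members as CPM per kilobase of annotated exon. In shCtrl *Neurod6* was highest at 78.1 CPM per kilobase, followed by *Mef2c* at 67.8, *Myt1l* at 21.7, *Neurod2* at 20.2, *Bhlhe22* at 13.6, *Emx1* at 9.13, *Zbtb20* at 7.3, *Emx2* at 4.03, *Neurod1* at 3.52 and *Prox1* at 1.44, against a median of 2.24 over all genes tested. *Neurod6* and *Mef2c* overlapped between libraries, as did *Myt1l* with *Neurod2* and *Emx2* with *Neurod1*. The remaining neighbours did not. In sh*Pla2g4e* the order of mean levels was the same except that *Neurod2* (25.8 CPM per kilobase) stood above *Myt1l* (17.8). The exon length counts every annotated exon, 15715 bases for *Mef2c* and 30730 for *Zbtb20*, so genes with many isoforms come out low on this scale.

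**Figure D3:**
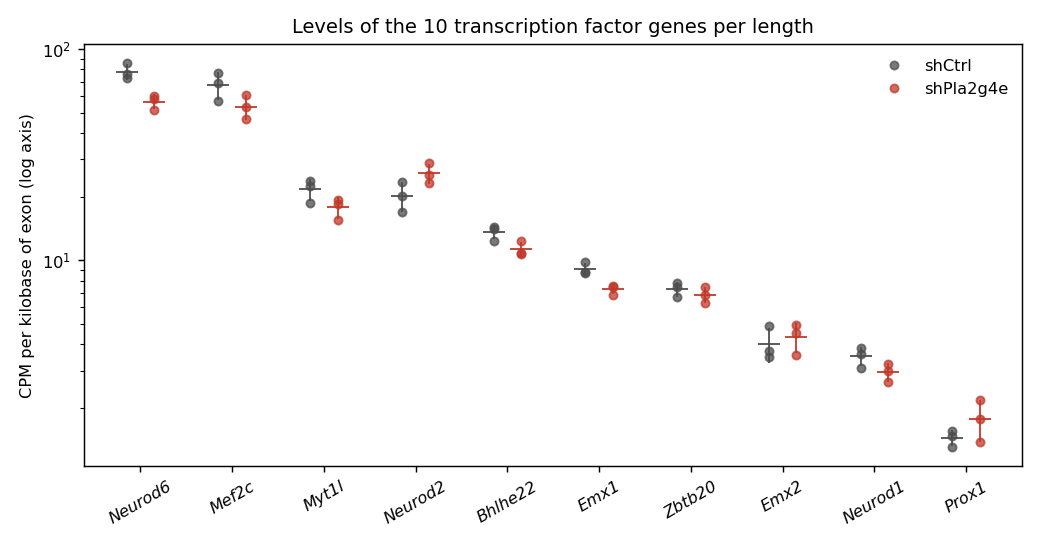
CPM per kilobase of exon on a log axis for the 10 members, ordered by the shCtrl mean, with 1 dot per library and the mean ± SD of each group (n = 3). *Neurod6* and *Mef2c* lie far above the other members and *Prox1* lowest, and only *Myt1l* and *Neurod2* change places between the groups.

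The genes whose pattern over the 6 libraries lay closest to *Neurod6*, among 10907 other genes whose log2 CPM averaged 3 or more, were *Mapk8*, *Ppp1r14c* and *Eepd1*, with root mean square differences of 0.0546, 0.0575 and 0.0608 log2 units from the *Neurod6* profile. *Mapk8*, which encodes the kinase JNK1, averaged 204.7 CPM in shCtrl and 148.6 CPM in sh*Pla2g4e*. Closest to *Neurod2* were *Sema4f*, *H2-D1* and *Sh3pxd2a* (0.0239, 0.0515 and 0.0582 log2 units). *Sema4f*, a transmembrane semaphorin, averaged 61.95 CPM in shCtrl and 79.44 CPM in sh*Pla2g4e*.

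The partners of the bHLH members were read from a list of 13 E proteins and other bHLH activators, 11 of them tested. Of these, 2 rose and 0 fell (2.48% and 4.0% of all genes): *Atoh7*, a retinal ganglion cell factor, and *Neurog2*, the proneural gene that acts before the NeuroD genes. *Neurog2* was at 3.105, 3.775 and 3.419 CPM in shCtrl and at 7.864, 7.12 and 6.17 CPM in sh*Pla2g4e*. Every sh*Pla2g4e* library was above every shCtrl library, 2.06-fold on average (log2 fold change 1.04, SE 0.19, edgeR adjusted p = 0.00168), and the call was lost without sh*Pla2g4e* replicate 1 (adjusted p = 0.0124). *Atoh7* rose from 0.877 ± 0.113 to 3.59 ± 0.922 CPM on 17 to 100 reads per library (log2 fold change 2.03, SE 0.30, edgeR adjusted p = 0.00033), with no overlap. At an unadjusted p under 0.05, 2 genes of the list were lower and 2 higher, beside the 12.9% and 12.8% of all genes at that level, and neither DESeq2 nor limma after voom called any lower. With the replicate block 1 was called lower and 2 higher (9.02% and 6.5% of all genes).

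The E proteins themselves, the partners of every NeuroD factor, did not pass the test. *Tcf4* was at 530.8, 508.5 and 493.3 CPM in shCtrl and at 450.0, 433.6 and 433.0 CPM in sh*Pla2g4e*, with every sh*Pla2g4e* library lower (log2 fold change −0.22, SE 0.08, edgeR adjusted p = 0.0692). With the replicate block *Tcf4* was called lower (adjusted p = 0.00406). *Tcf3* (log2 fold change −0.16, adjusted p = 0.385) and *Tcf12* (−0.12, adjusted p = 0.457) had overlapping groups, and leaving out 1 library moved *Tcf3* between −0.09 (sh*Pla2g4e* replicate 1) and −0.26 (sh*Pla2g4e* replicate 3) and *Tcf12* between −0.05 (shCtrl replicate 3) and −0.20 (shCtrl replicate 1). *Neurod4*, on 2 to 20 reads per library, was too low for a direction to be read.

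Of the genes that oppose bHLH activators, a list of ID, HES and Notch genes with 16 of 17 tested, 1 fell and 0 rose (4.0% and 2.48% of all genes). The one that fell was *Hes6*, a member of the HES family that promotes neuronal differentiation by blocking HES1 and so does not do what the list's name says. It went from 21.8 ± 3.24 to 13.2 ± 1.4 CPM with no overlap (log2 fold change −0.73, SE 0.13, edgeR adjusted p = 0.00186), and the call was lost without shCtrl replicate 1 (adjusted p = 0.0128). The median log2 fold change of the list was −0.11. With the block 5 were called lower and 1 higher (9.02% and 6.5% of all genes). At an unadjusted p under 0.05 edgeR gave 5 of the 16 lower and 3 higher (12.9% and 12.8% of all genes). DESeq2 called 2 lower and 1 higher (7.42% and 4.2% of its genes), and limma after voom 1 lower and 0 higher (4.23% and 2.3% of all genes).

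Beside *Mef2c*, 7 genes of the MEF2 family and the class IIa histone deacetylases that bind MEF2 proteins were tested, and none was called by edgeR without or with the block, by DESeq2 or by limma after voom. At an unadjusted p under 0.05 edgeR gave 1 lower and 0 higher (12.9% and 12.8% of all genes). *Mef2a* averaged 155.3 ± 10.5 CPM in shCtrl and 158.2 ± 10.3 CPM in sh*Pla2g4e*, and *Mef2d* 277.6 ± 43 and 246.8 ± 14 CPM, both with overlapping groups (log2 fold change 0.03 and −0.17, edgeR adjusted p = 0.891 and 0.318). For *Mef2d* the log2 fold change was −0.05 with shCtrl replicate 1 left out and −0.27 with shCtrl replicate 3 left out. Of 6 genes described as MEF2 targets in neurons, *Pcdh10*, a protocadherin, fell from 160.8 ± 11.6 to 114.2 ± 6.01 CPM (adjusted p = 0.000822, log2 fold change −0.49). *Nr4a1*, an immediate early nuclear receptor, rose from 105.8 ± 13.3 to 147.1 ± 19.4 CPM (adjusted p = 0.00748, log2 fold change 0.47). Without shCtrl replicate 2 the adjusted p was 0.011 for *Pcdh10* and 0.0655 for *Nr4a1*, and *Nr4a1* was also not called without shCtrl replicate 1 (0.0138) or without sh*Pla2g4e* replicate 1 or 3 (0.0276 and 0.0204). Without the replicate block 1 of the 6 was called lower and 1 higher (4.0% and 2.48% of all genes). With the block it was 1 lower and 2 higher (9.02% and 6.5% of all genes).

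Of 8 genes of the MYT1 family and the REST repressor complex, 1 rose and 0 fell (2.48% and 4.0% of all genes). *Myt1*, a paralog of *Myt1l* that is also used in oligodendrocyte precursors, was at 28.38, 32.96 and 35.21 CPM in shCtrl and at 41.83, 52.75 and 41.48 CPM in sh*Pla2g4e*. All sh*Pla2g4e* libraries were above all shCtrl libraries, opposite in sign to *Myt1l* (log2 fold change 0.49, SE 0.11, edgeR adjusted p = 0.00778), and the call was lost without shCtrl replicate 1 or 2 (adjusted p = 0.0418 and 0.033) and without sh*Pla2g4e* replicate 1 or 2 (0.0126 and 0.0419). *St18*, the third member of the family, averaged 3.14 ± 0.051 and 5.14 ± 0.602 CPM with no overlap (log2 fold change 0.70, adjusted p = 0.0304) and was called with the block (adjusted p = 0.007). At an unadjusted p under 0.05 edgeR gave 0 genes of this list lower and 3 higher (12.9% and 12.8% of all genes). The replicate block gave 0 lower and 2 higher (9.02% and 6.5% of all genes). DESeq2 and limma after voom each called 0 lower and 1 higher (7.42% and 4.2% of the genes DESeq2 gave an adjusted p, and 4.23% and 2.3% of all genes in limma). The summed oligodendrocyte lineage markers ranged from 524.8 to 593.1 CPM in shCtrl and from 546.8 to 651 CPM in sh*Pla2g4e*, with 0 of 9 called, or 1 lower with the block.

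**Figure D4:**
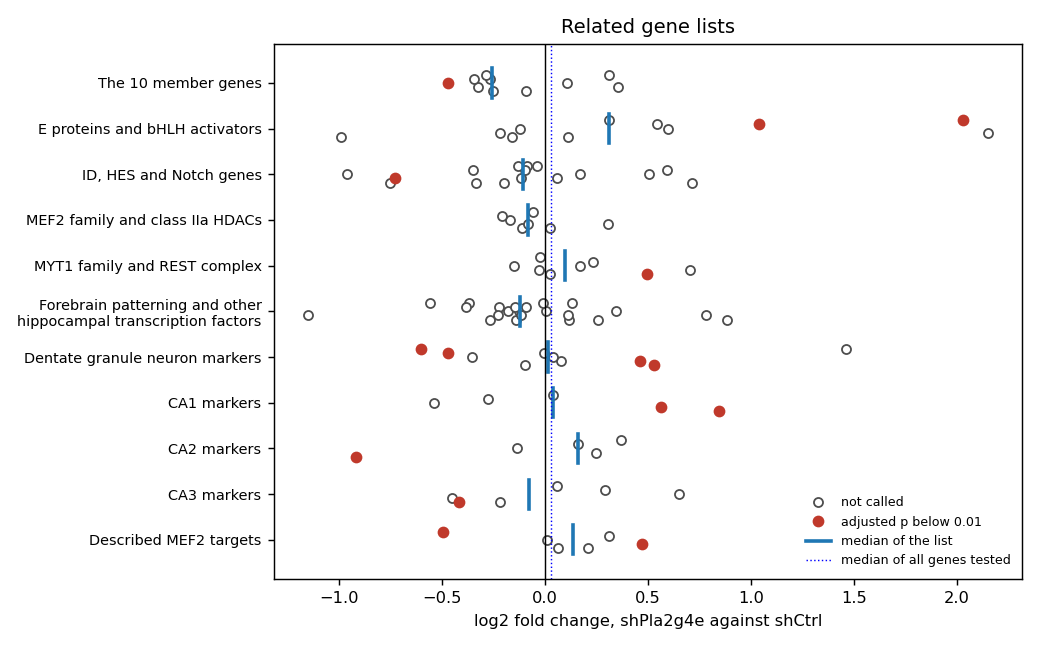
Log2 fold change of each tested gene (1 circle per gene, filled where the adjusted p was below 0.01) for the members and 10 related gene lists, with the median of each list as a vertical bar and the median of all genes as a dotted line. *Atoh7* and *Neurog2* stand to the right among the bHLH activators, the dentate list has filled circles on both sides of 0, and those of CA1 lie to the right and those of CA2 and CA3 to the left.

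Of 22 other transcription factors of forebrain patterning and hippocampal neurons, 0 were called in either direction, with a median log2 fold change of −0.12. At an unadjusted p under 0.05 edgeR gave 4 lower and 1 higher (12.9% and 12.8% of all genes), DESeq2 called 1 lower (7.42% of its genes) and limma after voom none. With the block 3 were called lower and 1 higher (9.02% and 6.5% of all genes).

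Marker genes of the hippocampal fields in which these factors act were called in both directions, beside 4.0% of all genes called lower and 2.48% higher. Of 10 dentate granule neuron markers, *Pdzd2* (154.2 ± 14.2 to 111.4 ± 5.33 CPM) and *Stxbp6* (57.8 ± 4.17 to 38.2 ± 7.29 CPM) fell, *Trpc6* (20.8 ± 1.97 to 30.02 ± 0.861 CPM) and *Npnt* (23.4 ± 0.905 to 32.2 ± 2.01 CPM) rose, and the median was 0.02. Of 5 CA1 markers, *Wfs1*, an endoplasmic reticulum protein gene, rose from 56.9 ± 9.38 to 102.1 ± 21.8 CPM (edgeR adjusted p = 0.000622, log2 fold change 0.85) and *Man1a* from 30.6 ± 4.83 to 45.4 ± 3.47 CPM (log2 fold change 0.56, edgeR adjusted p = 0.00294). A further 2 CA1 markers were called lower only with the replicate block: *Fibcd1*, at 18.9 ± 2.97 and 13.0 ± 1.7 CPM with no overlap (edgeR adjusted p = 0.0194, with the block 0.000163), and *Mpped1*, at 260.1 ± 28 and 215.0 ± 12.2 CPM (0.055, with the block 0.00067). Of 5 CA2 markers *Amigo2*, a cell adhesion gene, fell from 9.10 ± 1.08 to 4.83 ± 0.289 CPM (log2 fold change −0.91, edgeR adjusted p = 0.0017). Of 6 CA3 markers *Cpne4*, a copine, fell from 129.9 ± 13.1 to 97.2 ± 7.65 CPM (log2 fold change −0.42, edgeR adjusted p = 0.00595). With the block, 2 dentate markers were called lower and 2 higher, 2 and 2 of the CA1 markers, 1 and 1 of the CA2 markers, and 2 and 1 of the CA3 markers, where the block called 9.02% of all genes lower and 6.5% higher.

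The calls of most of these markers were lost when 1 library was left out. Without shCtrl replicate 1, *Trpc6*, *Stxbp6*, *Man1a*, *Cpne4* and *Npnt* were not called (adjusted p = 0.0179, 0.0148, 0.0173, 0.0314 and 0.0124), and without shCtrl replicate 2 neither were *Pdzd2*, *Trpc6*, *Stxbp6*, *Man1a*, *Cpne4* and *Npnt* (0.0212, 0.0121, 0.0207, 0.0275, 0.0131 and 0.0344). Without shCtrl replicate 3, *Amigo2* and *Npnt* were not called (0.0103 and 0.0145). Without sh*Pla2g4e* replicate 1, *Trpc6*, *Stxbp6*, *Amigo2*, *Cpne4* and *Npnt* were not called (0.0175, 0.0102, 0.0108, 0.0114 and 0.0165), and without replicate 2 *Man1a*, *Cpne4* and *Npnt* (0.0101, 0.0303 and 0.023). *Wfs1* stayed called without any single library, though not in edgeR's robust fit (adjusted p = 0.0162), and *Cpne4* was also not called when scaled by library size alone (adjusted p = 0.0122).

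Several cell type markers moved with the members, and their part in the results above was not tested. The counts of called markers stand beside 4.0% of all genes lower and 2.48% higher, or 9.02% and 6.5% with the replicate block. *Slc17a7*, the vesicular glutamate transporter of cortical and hippocampal pyramidal neurons, went from 744.8 ± 97.0 to 299.6 ± 11.2 CPM (log2 fold change −1.31, edgeR adjusted p = 3.69e-07), and *Slc17a6* from 47.3 ± 12.6 to 88.3 ± 23.8 CPM (log2 fold change 0.91, edgeR adjusted p = 0.00388). The 7 summed glutamatergic markers ranged from 2974 to 3292 CPM in shCtrl and from 2246 to 2596 CPM in sh*Pla2g4e*, without overlap, with 2 of 7 called lower and 1 higher (3 and 1 with the replicate block). DESeq2 called 3 lower and 0 higher, so it did not call *Slc17a6*. The highest of them, *Camk2a*, averaged 1051 and 1065 CPM (edgeR adjusted p = 0.945). The 9 pan-neuronal markers summed to 4668 to 5140 CPM in shCtrl and 4320 to 4773 CPM in sh*Pla2g4e*, overlapping, with 2 called lower and 2 higher (3 and 3 with the block).

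Astrocyte markers, which concern *Zbtb20* and *Emx2*, summed to 1660, 1923 and 2393 CPM in shCtrl and to 1246, 1211 and 2036 CPM in sh*Pla2g4e*, with 2 of 9 called lower and 0 higher. Replicate 3 was highest in both groups, and the sum was lower in sh*Pla2g4e* in all 3 numbered pairs. With the replicate block 6 of the 9 were called lower and 1 higher (all genes: 9.02% and 6.5% with the block, 4.0% and 2.48% without). *Gfap*, lower in all 3 pairs, averaged 665.3 ± 141 and 433.1 ± 136 CPM with overlapping groups (log2 fold change −0.62, edgeR adjusted p = 0.0267, with the block 6.26e-12). GABAergic markers summed to 895.7 to 959.4 CPM in shCtrl and 809.5 to 912.4 CPM in sh*Pla2g4e*, with 2 of 12 called lower and 1 higher (3 and 2 with the block). Proliferation markers summed to 130.8 to 164.6 and 111.5 to 152.4 CPM, with 1 of 6 called lower and 0 higher (2 and 0 with the block). Microglial markers summed to at most 11.5 CPM and endothelial and mural markers to at most 73.6 CPM in any library, with 0 called in either list, and *Cldn5* and *Kcnj8* had no read in any library.

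The promoters of the members were searched for E-boxes, the sequences that NeuroD factors bind, in the 300 bases around each RefSeq start site (GRCm38.p6, mostly upstream of the start, both strands), which were given for 9 of the 10 genes. These 9 genes had 16 promoters, several of them belonging to 1 gene. The general E-box CANNTG was in 12 of the 16 (75.0%) and in 72.3% of 32851 promoters of all genes. CAGATG, whose reverse complement is CATCTG and which is one form of CANNTG, was in 6 of the 16 (37.5%), those of *Mef2c*, *Myt1l*, *Neurod2* and *Prox1*, and in 17.2% of all promoters. CAGCTG, another form of CANNTG, was in 1 of the 16, of *Myt1l*, and in 16.3% of all.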

How the data were processed

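The data were 6 stranded poly(A) RNA-seq libraries of primary cultures. The authors aligned reads with STAR and counted them on exons with featureCounts 1.6.0, and the deposited counts are raw, 1 file per library. The methods name mm10 and GENCODE M18, whereas the file headers name GENCODE release 28 and GRCm39. The header records no strand option, so reads of a gene and its antisense partner cannot be told apart. Symbols came from GENCODE vM21 by gene identifier (52081 of 55357 matched).

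CPM were scaled by TMM factors. Genes with at least 6 reads in 1 library (21876) were tested with edgeR 4.0.16 (R 4.3.3, glmQLFit and glmQLFTest) and Benjamini-Hochberg adjustment over all of them, at the study's threshold of 0.01, without a replicate block. Alternatives were limma 3.58.1 after voom, DESeq2 1.42.0, the robust fit, other scalings and filters, a threshold of 0.05, a replicate block and leaving out each library. Reads per library (17054717 to 23570180) give 155 to 216 reads for *Neurod1*, one of the least abundant members. Replicate numbers come from the labels. Over 10908 genes, the correlation of deviations from group means was 0.392, 0.189 and 0.461 for libraries sharing a number and −0.393 to 0.108 otherwise. Deviations from a group mean cancel out within the group, so positive values for some pairs force negative values for others. With so few libraries this check cannot settle whether the numbers pair the libraries, and the replicate block takes the pairing as given. The fit without the block stayed the one reported, as the study's methods name none, and blocked values are printed for members and other named genes whose call they change, and as counts for the gene lists.

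The members and gene lists were chosen with earlier results of these data known. All members are named, with at most 3 called genes per related list, the relatives of members, and at most 2 of the highest markers per cell type. *Slc17a7* and *Slc17a6*, *Npnt*, *Fibcd1*, *Mpped1*, *Mki67*, *Top2a*, *Cdk1*, *Ccnb1*, *Cldn5* and *Kcnj8* were named after their values were seen. Seed sites and 3′ UTRs were read from GENCODE vM21 (GRCm38), and promoters from RefSeq.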

Additional observations from a re-analysis of the deposited data

How the results depend on the processing

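Signs of all 10 members held under the 16 alternatives, and *Pla2g4e* stayed past the threshold in each. *Neurod6* passed in 14 of the 16 (log2 fold change −0.52 to −0.40). The number of members called was 1 and became 3 with no filter on low counts, 4 with the replicate block and 2 at an adjusted p of 0.05, and 0 to 2 when 1 library was left out. Of these, the members called lower, 1 in all, became 2 with no filter, 3 with the replicate block and 0 to 2 without 1 library, being 0 without replicate 2 of either group and 2 without shCtrl replicate 3. The members called higher, 0 in all, became 1 with no filter, with the replicate block and at 0.05 (*Neurod2* each time, where 12.9% of all genes were called at 0.05). The 1419 genes called became 2349 with no filter, 3395 with the replicate block and 2813 at 0.05, and the 14 called in the related lists became 23, 31 and 23. Leaving out 1 library gave 695 to 1613 genes and 6 to 19 in the related lists. The cause of these shifts was not tested. Over all genes, the median log2 fold change was 0.10 when scaled by library size and 0.06 by upper quartile, and 43.3% and 53.2% of the calls were then lower. DESeq2 gave no adjusted p for 5514 genes.

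The alternatives were run for the members, *Pla2g4e*, the called genes named from the related lists and the relatives of members, and of these *Mef2a* and *Neurod4* changed sign. With 1 library left out, *Mef2a* ranged from −0.0276 to 0.0796, below 0 when shCtrl replicate 3 or sh*Pla2g4e* replicate 1 (−0.00017) was missing. *Neurod4* ranged from −0.379 to 0.563, below 0 when shCtrl replicate 2 or sh*Pla2g4e* replicate 1 or 3 was missing. At 3 libraries per group the 95% intervals of *Neurod1*, *Prox1*, *Zbtb20* and *Emx2* held 0, and a change of the size of the *Neurod1* estimate could not be told from none at its 155 to 216 reads per library.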
